A study of Mus musculus with 20 samples.

Results

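The genes described here are 10 chains of the vascular basement membrane, the 6 collagen IV genes Col4a1, Col4a2, Col4a3, Col4a4, Col4a5 and Col4a6 and the 4 laminin genes Lama4, Lama5, Lamb2 and Lamc1. They were picked by name out of 43422 genes listed for every library, with no threshold on a measured value. The choice was made with earlier results of these data known, so counts set beside the share over all genes are descriptions. RNA of abdominal aortas was sequenced from 20 mice, 5 in each of 4 groups. The groups were WT mice given saline, WT mice given angiotensin II (Ang II), Plod1-/- mice given saline and Plod1-/- mice given Ang II. The background was C57BL/6 by the labels, C57Bl/6NCrl by the methods. The labels give the age as 6 months, whereas the methods give a younger age at the start of infusion, and the age is therefore uncertain. Ang II was infused at 1000 ng/kg per min with tissue taken on day 14. Plod1 encodes lysyl hydroxylase 1 (LH1), which hydroxylates lysines of collagens before they are cross-linked. The deletion is germline and present in every cell, so a difference between genotypes cannot be assigned to one cell type. Ang II infusion raises blood pressure and is a standard way to provoke aneurysm of the mouse aorta. The values are FPKM, read fragments scaled for transcript length and for library depth, which can therefore be set side by side between genes.

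Collagen IV forms the net of a basement membrane. Its chains assemble in triplets, the widespread form made of α1 and α2 chains, a second of α3, α4 and α5 best known from kidney glomeruli, and one of α5 and α6 known from smooth muscle basement membranes. Laminins are cross-shaped trimers of an α, a β and a γ chain. Those of arteries carry α4 or α5 with β1 or β2 and γ1, bind integrins and dystroglycan on the cell surface, and start the assembly of the membrane. Each smooth muscle cell of the aortic media is wrapped in such a membrane, and another underlies the endothelium.

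The 6 collagen IV genes lie as 3 pairs, each head to head on opposite strands, and this arrangement is why the paired chains are compared below. In the GENCODE annotation of GRCm38, Col4a1 (chromosome 8, 11198423 to 11312826, minus strand) and Col4a2 (chromosome 8, 11312805 to 11449287, plus strand) share 22 bases at their starts. Col4a4 (chromosome 1, 82448423 to 82586849, minus strand) and Col4a3 (chromosome 1, 82586921 to 82722059, plus strand) have 71 bases between them. Col4a6 (chromosome X, 141165403 to 141474076, minus strand) and Col4a5 (chromosome X, 141475385 to 141689234, plus strand) are 1308 bases apart. The sequences at the starts of each pair are shown, for Col4a5 and Col4a6 as separate upstream stretches because their starts lie 1308 bases apart. They are from RefSeq, build GRCm38.p6, and are written 5′ to 3′ on the strand named. In the first, capitals mark the 22 bases annotated in both genes. In the others, capitals mark a GC box (GGGCGG, or CCGCCC on the opposite strand) or a CCAAT box (CCAAT, or ATTGG on the opposite strand).
Col4a1 and Col4a2 start sites, chr8:11312801-11312830, plus strand: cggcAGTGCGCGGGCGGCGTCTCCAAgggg
Col4a4 and Col4a3, all 71 bases between them, chr1:82586850-82586920, plus strand: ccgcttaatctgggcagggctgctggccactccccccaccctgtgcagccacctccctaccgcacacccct
Upstream of Col4a6, chrX:141474077-141474326, minus strand: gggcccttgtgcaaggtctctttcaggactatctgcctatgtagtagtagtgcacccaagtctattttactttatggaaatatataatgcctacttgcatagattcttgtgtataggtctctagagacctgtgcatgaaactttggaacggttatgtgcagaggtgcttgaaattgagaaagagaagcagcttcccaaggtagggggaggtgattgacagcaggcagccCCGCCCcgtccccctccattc
Upstream of Col4a5, chrX:141475169-141475384, plus strand: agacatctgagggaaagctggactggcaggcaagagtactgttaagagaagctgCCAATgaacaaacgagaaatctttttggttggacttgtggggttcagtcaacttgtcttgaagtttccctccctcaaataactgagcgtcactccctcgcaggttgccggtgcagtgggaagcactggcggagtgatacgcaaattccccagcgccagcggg
The shared Col4a1 and Col4a2 stretch holds 1 GC box, whose letters lie within the capitals, and the 71 bases between Col4a4 and Col4a3 hold none of the motifs searched. The 250 bases before the start were at hand for 7 of the 10 genes, and both strands were searched. GC boxes stood in the windows of Col4a2 (2 copies), Col4a5 (1, outside the stretch shown), Col4a6 (1) and Lama5 (4), against 32.9% of 27025 mouse promoter windows of that length. CCAAT boxes stood in those of Col4a1, Col4a2 and Col4a5 with 1 copy each, against 34.5% of all windows. A TATA box (TATAAA), found in 13.0% of all windows, was in none of the 7. These matches describe letters only.

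Of the laminin genes, Lama4 lies on chromosome 10 (38965515 to 39110188, plus strand), Lama5 on chromosome 2 (180176373 to 180225859, minus strand), Lamb2 on chromosome 9 (108479736 to 108490530, plus strand) and Lamc1 on chromosome 1 (153218922 to 153332786, minus strand). The library kit does not keep the strand of the RNA, so reads in the 22 bases shared by Col4a1 and Col4a2, or in annotated antisense genes, cannot be told apart. The largest value of an antisense gene within a member was 1.20 FPKM, for Gm15418 within Col4a1. Relative to the member, such reads could matter more for Col4a3, which was as low as 0.199 FPKM in Ang II-treated Plod1-/- mice. Its antisense gene C430014B12Rik was at most 0.147 FPKM in any mouse.

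Plod1, the deleted gene, lay between 22.8 and 29.7 FPKM in all WT libraries and at no more than 0.0415 FPKM in all Plod1-/- libraries. Several libraries stood apart. The methods state that only males were used, but 2 libraries held RNA of the female-specific Xist, Plod1-/- saline replicate 5 with 15.1 FPKM and Plod1-/- Ang II replicate 1 with 7.93 FPKM, against at most 0.0328 FPKM elsewhere. WT Ang II replicate 4 and Plod1-/- Ang II replicate 1 had summed smooth muscle marker FPKM of 17041 and 16762, within the saline range of 14092 to 20706, whereas the other Ang II libraries lay between 2298 and 10479. Acta2 made up most of these sums. Mitochondrial genes took 14.6% to 29.1% of FPKM in WT Ang II mice and 8.37% to 14.6% in saline WT mice. The 5 kidney markers stayed below 1 FPKM in every mouse, while each of the 7 smooth muscle markers reached 1 FPKM in at least 1 mouse of every group. Read counts are not part of the files used. From the smallest FPKM steps of low genes, relative depth of the libraries was 0.903 to 1.09. The search covered only depths near that of one library, so a much larger difference could not have been found.

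Lamb2, the laminin β2 chain, was the most abundant of the 10 in 3 of the 4 groups. In saline WT mice the mean FPKM ran in the order Lamb2 (242 ± 20.9, SD, n = 5), Col4a1 (82.7 ± 17.1), Col4a2 (68.2 ± 15.9), Lamc1 (37.5 ± 6.02), Lama5 (33.0 ± 6.56), Col4a6 (26.1 ± 3.03), Col4a5 (22.6 ± 2.71), Lama4 (13.6 ± 3.64), Col4a4 (2.31 ± 0.620) and Col4a3 (1.502 ± 0.430). The ranges of Col4a1 and Col4a2 overlapped, as did those of neighbours from Lamc1 down to Col4a5 and those of Col4a4 and Col4a3. Lamb2 lay above Col4a1, Col4a2 above Lamc1, and Lama4 between Col4a5 and Col4a4, each without overlap. In Ang II-treated Plod1-/- mice the order differed, with Col4a1 (119 ± 22.1) and Col4a2 (106 ± 15.0) at the head, followed by Lamb2 (92.2 ± 20.5), and the ranges of these 3 genes overlapped.

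**Figure D1:**
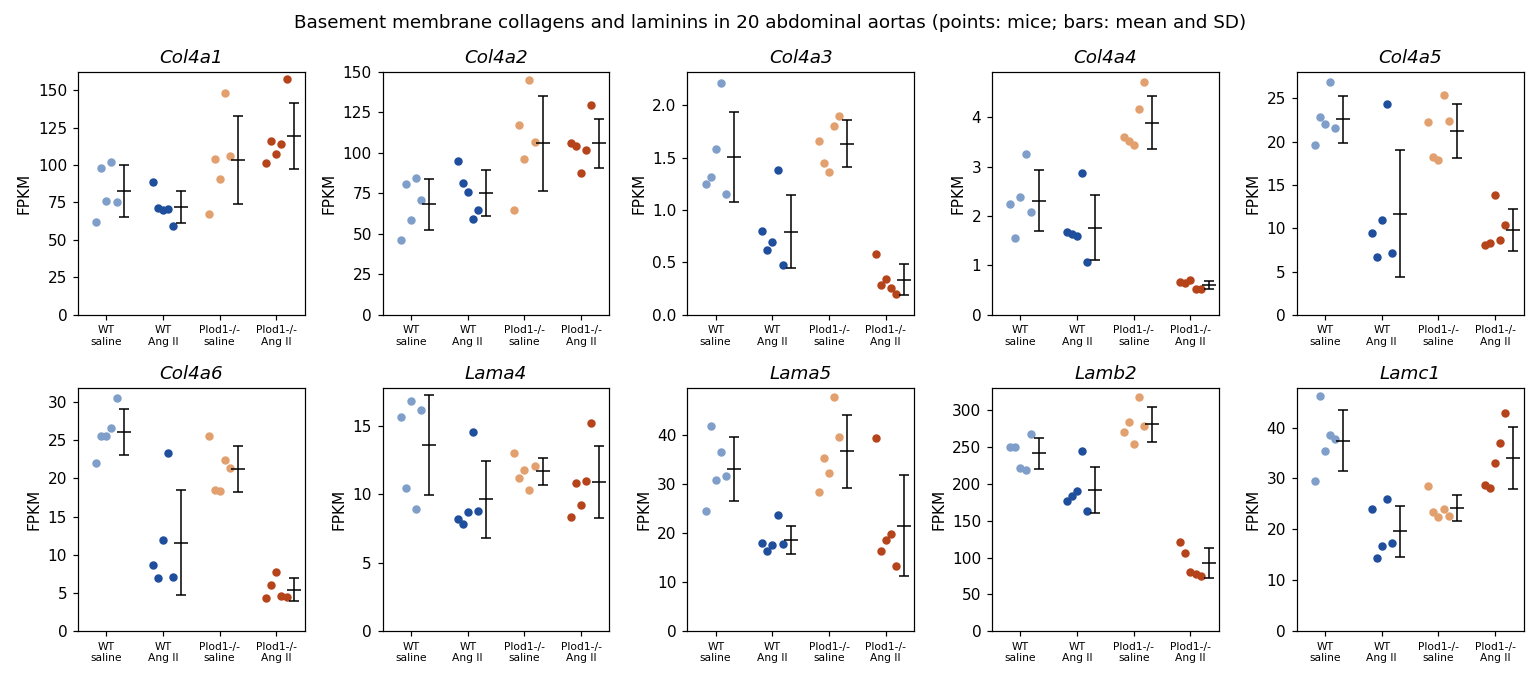
FPKM of the 10 genes (vertical axes from 0, one scale per gene) in each of 20 mice, by group; points are mice and bars are the mean and SD of 5 mice. Lamb2 and Col4a4 lie lowest in Ang II-treated Plod1-/- mice, below all other mice. Col4a3, Col4a5 and Col4a6 also have their lowest mean there but overlap WT Ang II mice. In WT Ang II mice 1 library, replicate 4, lies near the saline values of Col4a5 and Col4a6.

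The first question was how Ang II changed these chains in WT mice. Differentially expressed genes (DEGs) were taken as those with a Benjamini-Hochberg adjusted p below 0.05 and an absolute log2 fold change above 1 in limma. Fold changes are on the log2(FPKM + 1) scale, which understates the change of genes near or below 1 FPKM. Of the 10 chains, 2 were DEGs, Col4a5 and Col4a6, both lower, where 8.66% of 11994 genes tested were DEGs in either direction and 2.28% were lower. The median log2 change was -0.47 over the 10 chains and -0.14 over all genes tested. Comparisons that follow share groups of mice with this one, and each is given by its own values.

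Col4a5 encodes the α5 chain, shared by the α3α4α5 and α5α6 forms. Its FPKM was 19.6, 22.8, 22.0, 26.9 and 21.6 in saline WT mice and 9.41, 6.65, 10.9, 24.4 and 7.10 in Ang II-treated WT mice. Replicate 4 of the Ang II group lay within the saline range, and the other Ang II mice lay below every saline mouse. The log2 change was -1.04 (SE 0.28, limma adjusted p = 0.016). It was under the fold threshold without saline replicate 4 (-0.97), Ang II replicate 2 (-0.89) or Ang II replicate 5 (-0.91), and it was -1.33 without Ang II replicate 4.

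Col4a6, the α6 chain of the smooth muscle form, had FPKM of 22.0, 25.6, 25.6, 26.6 and 30.5 with saline and 8.60, 6.89, 11.98, 23.3 and 7.13 with Ang II in WT mice. The same Ang II mouse overlapped the saline range. The log2 change was -1.24 (SE 0.27, limma adjusted p = 0.0069), and -1.51 without Ang II replicate 4. For both genes the fall went with lower summed smooth muscle markers, whose median was 15802 FPKM with saline and 8275 FPKM with Ang II, 3 of the 7 markers being lower DEGs. In bulk tissue fewer cells of a type and less RNA per cell cannot be told apart, and the part of smooth muscle content in these changes was not tested. All 6 adipocyte markers (summed FPKM 126 to 656 with saline and 1269 to 5738 with Ang II) and 4 of 7 endothelial markers were higher DEGs in this comparison. Of all genes tested 6.38% were higher DEGs. The endothelial sums overlapped, at 91.3 to 255 FPKM with saline and 123 to 200 FPKM with Ang II. Pecam1, not a DEG, had means of 119 and 62.9 FPKM. Skeletal muscle markers summed to 3.60 to 6.39 FPKM with saline and 2.69 to 285 FPKM with Ang II. The part of these cell types was not tested either.

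Among the laminins of WT mice, Lama5, an α chain of endothelium and smooth muscle, and Lamc1, the γ1 chain found in most laminins, passed the adjusted p but not the fold threshold. Lama5 spanned 24.4 to 41.8 FPKM with saline and 16.3 to 23.6 FPKM with Ang II, a log2 difference of -0.78 (SE 0.15, limma adjusted p = 0.0042). Lamc1 was 29.5, 46.2, 35.4, 38.6 and 37.7 FPKM with saline and 23.9, 14.4, 16.7, 25.9 and 17.2 FPKM with Ang II, a difference of -0.92 (SE 0.17, adjusted p = 0.0038), or -1.02 without Ang II replicate 4. These were the 2 of 10 chains with no overlap and lower values under Ang II, which held for 6.88% of genes tested. Col4a3 also passed the adjusted p alone (-0.48, SE 0.15, limma adjusted p = 0.029) but did not in 5 of 10 fits without 1 mouse. It reached 1 FPKM in 5 saline mice and 1 Ang II mouse, so it met the expression filter mainly through the group where it was higher. In all, 5 of 10 chains passed the adjusted p, or 4 of the 9 at 1 FPKM or more in every mouse of both groups, against 38% of genes tested. Lamb2 (-0.34, adjusted p = 0.059), Lama4 (-0.45, adjusted p = 0.097), Col4a4 (-0.27, adjusted p = 0.23), Col4a1 (-0.18, adjusted p = 0.37) and Col4a2 (0.16, adjusted p = 0.51) did not pass.

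The same question in Plod1-/- mice gave 4 DEGs among the 10 chains, Col4a4, Col4a5, Col4a6 and Lamb2, all lower, where 13.9% of 12333 genes tested were DEGs and 5.51% were lower. Col4a4 and Col4a3 met the expression filter through saline mice alone, and among the other 8 chains 3 were DEGs. The median log2 change was -0.90 over the 10 chains, -0.47 over these 8 and 0.05 over all genes tested. Lamb2 was 270.5, 284, 254, 318 and 279 FPKM in saline-treated Plod1-/- mice and 121, 107, 80.5, 77.5 and 75.4 FPKM in Ang II-treated Plod1-/- mice. Even the highest Ang II value was far below the lowest saline value. The log2 change was -1.62 (SE 0.15, limma adjusted p = 4.7e-05), and -1.73 without both libraries that held Xist RNA.

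Col4a6 was 25.5, 18.4, 18.4, 22.4 and 21.4 FPKM with saline and 4.36, 5.99, 7.80, 4.54 and 4.41 FPKM with Ang II in Plod1-/- mice. No Ang II mouse reached the saline range, replicate 1 included, and the log2 change was -1.81 (SE 0.16, limma adjusted p = 3.5e-05). Its partner Col4a5 was 22.2, 18.3, 17.9, 25.4 and 22.4 FPKM with saline and 8.04, 8.27, 13.9, 8.64 and 10.4 FPKM with Ang II. These ranges did not overlap either, and the log2 change was -1.05 (SE 0.15, adjusted p = 0.00045). It was -0.97 and so not a DEG without both libraries with Xist RNA, -0.99 without Ang II replicate 1 alone and -0.99 without saline replicate 4.

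Col4a4, the α4 chain of the α3α4α5 form, was 3.61, 3.52, 3.43, 4.16 and 4.71 FPKM in saline-treated Plod1-/- mice and 0.656, 0.636, 0.707, 0.514 and 0.518 FPKM in Ang II-treated ones. All Ang II mice were below 1 FPKM, which bears on its test as said above. The log2 change was -1.60 (SE 0.09, limma adjusted p = 1.9e-05). The α3 chain gene Col4a3 was 1.65, 1.45, 1.36, 1.80 and 1.90 FPKM with saline and 0.579, 0.286, 0.344, 0.259 and 0.199 FPKM with Ang II. Its log2 change of -0.98 (SE 0.10, adjusted p = 6.5e-05) lay under the fold threshold. Since the scale compresses values this low, it was -2.05 with a pseudocount of 0.1 in place of 1. It was also a DEG with weights per mouse (-1.05), quantile normalization (-1.11), mitochondrial genes left out (-1.01), without both libraries with Xist RNA (-1.01), and without saline replicate 2 (-1.01), saline replicate 3 (-1.02) or Ang II replicate 1 (-1.05).

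In all, 5 of the 10 chains, Col4a3 to Col4a6 and Lamb2, were lower under Ang II in Plod1-/- mice with no overlap, as were 15% of genes tested. Without Col4a3 and Col4a4 these were 3 of 8. Lama5 was 28.4 to 47.6 FPKM with saline. Under Ang II it was 39.3 FPKM in replicate 1 and 13.3 to 19.7 FPKM in the others, a log2 difference of -0.82 (SE 0.25, limma adjusted p = 0.023). Without Ang II replicate 1, the mouse with Xist RNA and a smooth muscle marker sum in the saline range, the difference was -1.06 and Lama5 was a DEG. The adjusted p of Lama5 was at or above 0.05 in 5 of 10 fits without 1 mouse (0.058 at the highest). Lamc1 went the other way, with 28.6, 23.4, 22.4, 24.0 and 22.7 FPKM with saline and 28.7, 28.2, 33.1, 37.1 and 42.8 FPKM with Ang II, a difference of 0.46 (SE 0.13, adjusted p = 0.015) that passed the adjusted p alone. With mitochondrial genes left out of the scale it did not (0.38, adjusted p = 0.071). In total 7 of 10 chains passed the adjusted p, or 5 of 8 without Col4a3 and Col4a4, against 43.8% of genes tested.

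Col4a1 and Col4a2, the chains of the widespread form, did not pass in either genotype's response to Ang II. In Plod1-/- mice the log2 differences were 0.23 (95% interval -0.21 to 0.68) for Col4a1 and 0.03 (-0.40 to 0.47) for Col4a2, with limma adjusted p of 0.37 and 0.90. Lama4, an α chain of endothelial and muscle membranes, ranged from 10.3 to 13.0 FPKM with saline and from 8.39 to 15.2 FPKM with Ang II (-0.11, interval -0.42 to 0.20, adjusted p = 0.55).

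Cell type markers moved strongly in the same comparison. Of the 7 smooth muscle markers 6 were lower DEGs, with summed FPKM of 15031 to 20706 with saline and 2298 to 16762 with Ang II. All 6 macrophage markers were higher DEGs, with sums of 56.9 to 208 FPKM with saline and 633 to 3682 FPKM with Ang II. Higher DEGs were also 3 of 7 endothelial and 3 of 6 adipocyte markers, against 8.38% of genes tested. The endothelial sums overlapped, at 56.8 to 157 FPKM with saline and 47.5 to 167 FPKM with Ang II. Pecam1, not a DEG, had means of 62.4 and 44.8 FPKM. Fibroblast markers summed to 376 to 687 FPKM with saline and 765 to 3844 FPKM with Ang II, and 1 of the 6, Col1a1, was a higher DEG. Col1a1 made up most of this rise, with means of 96.9 and 1217 FPKM. Among the others, mean Pdgfra, Lum and Dpt were higher with Ang II, and Dcn (154 and 137 FPKM) and Pi16 (72.7 and 45.6 FPKM) were lower. In Ang II replicate 1, which held Xist RNA and had a smooth muscle sum of 16762 FPKM, Lama5 was within the saline range, and Col4a3 to Col4a6 and Lamb2 were below it. The smooth muscle sum is mostly Acta2, which overlapped between the groups, as did Tagln and Cnn1. Myh11, Smtn, Lmod1 and Myocd were below the saline range in every Ang II mouse, replicate 1 included. Lmod1, for example, was at most 149 FPKM with Ang II and at least 353 FPKM with saline. The part of cell content in the changes was not tested.

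**Figure D2:**
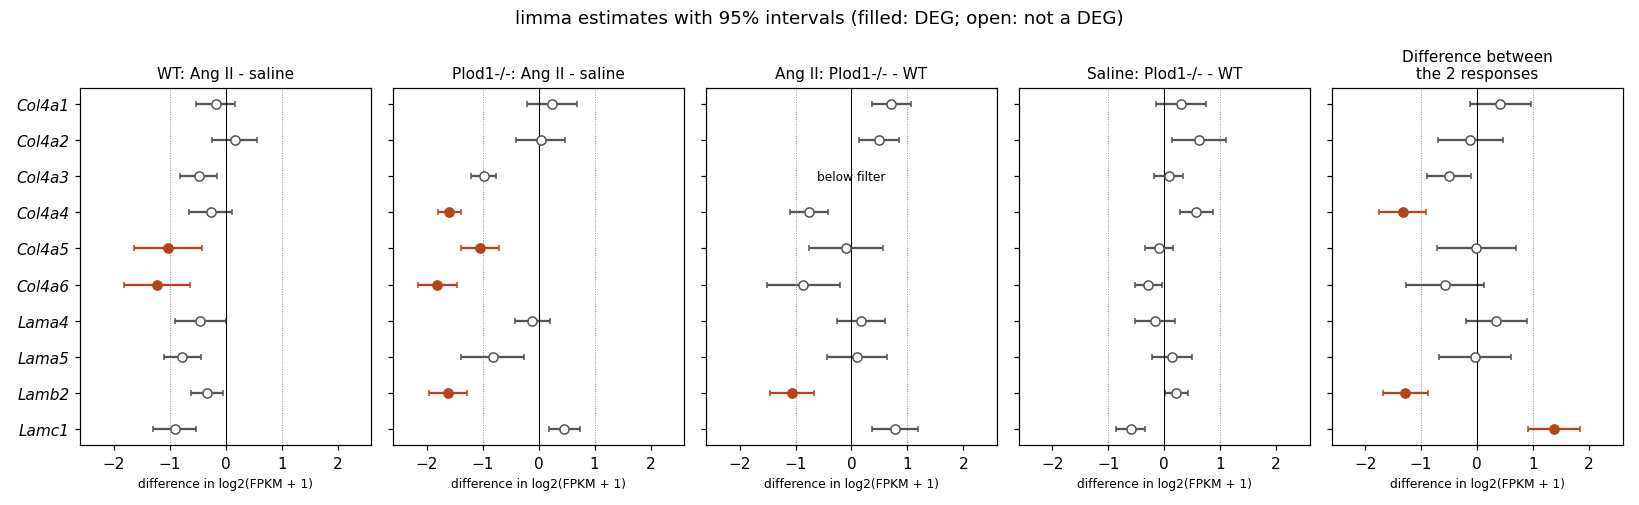
Differences in log2(FPKM + 1) with 95% intervals from limma for the 10 genes in 4 comparisons between groups and in the difference between the 2 responses to Ang II; filled points are DEGs, dotted lines mark a log2 change of 1 in either direction. Col4a5 and Col4a6 are filled in both responses, Lamb2 and Col4a4 in the Plod1-/- response and, with Lamc1, in the difference.

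Whether the response to Ang II differed between genotypes was tested with the interaction term over all 20 mice. Among the 10 chains, 3 differed past both thresholds, Col4a4, Lamb2 and Lamc1, where 16.1% of 13263 genes did. The Ang II response of Lamb2 was lower in Plod1-/- than in WT mice by a log2 difference of -1.28 (SE 0.20, limma adjusted p = 0.00015) and that of Col4a4 by -1.33 (SE 0.21, adjusted p = 0.00016). Col4a4 was below 1 FPKM in all Ang II-treated Plod1-/- mice and met the expression filter through the other groups. Its size depends on the scale, from -2.10 to -1.22 over the alternatives other than single mice left out. For Lamc1 the difference was 1.38 (SE 0.22, adjusted p = 0.00022), its response being -0.92 in WT and 0.46 in Plod1-/- mice. These remained past both thresholds when any 1 mouse was left out. Col4a3 passed the adjusted p alone (-0.50, SE 0.19, adjusted p = 0.045) and did not pass in 15 of 20 fits without 1 mouse (adjusted p up to 0.078). For Col4a5 the difference was -0.01 (95% interval -0.72 to 0.69, adjusted p = 0.98) and for Col4a6 -0.57 (-1.26 to 0.12, adjusted p = 0.18), so a different response of these chains was not shown and not excluded by the intervals.

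Under Ang II, Plod1-/- and WT mice differed in 1 DEG of the 9 chains tested, Lamb2, where 11.1% of 12356 genes were DEGs and 3.67% were lower ones. WT Ang II mice had Lamb2 values of 177, 184, 191, 244 and 163 FPKM, all above the highest Plod1-/- value of 121 FPKM given before. The log2 difference was -1.06 (SE 0.18, limma adjusted p = 0.0031). It fell just under the fold threshold without WT Ang II replicate 4 (-0.97) or Plod1-/- Ang II replicate 5 (-0.996), with adjusted p of 0.0037 and 0.0077. Col4a4 was 1.68, 1.64, 1.58, 2.86 and 1.06 FPKM in WT Ang II mice, also above all Plod1-/- Ang II values, and its difference of -0.76 (SE 0.15, adjusted p = 0.0065) passed the adjusted p alone. The gene met the expression filter here through the WT mice alone, the group where it was higher. Col4a6 passed it likewise (-0.86, SE 0.30, adjusted p = 0.047), but not in 6 of 10 fits without 1 mouse, among them the one without the library with Xist RNA (-0.80, adjusted p = 0.072).

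Col4a1, Col4a2 and Lamc1 were higher in Plod1-/- than in WT mice under Ang II by the adjusted p alone. Col4a1 was 89.0, 71.3, 70.2, 70.4 and 59.5 FPKM in WT Ang II mice and 101, 116, 108, 114 and 157 FPKM in Plod1-/- Ang II mice, a log2 difference of 0.71 (SE 0.16, limma adjusted p = 0.0088) with no overlap. Col4a2 was 95.2, 81.7, 75.6, 59.2 and 64.9 FPKM against 106, 104, 87.8, 102 and 129 FPKM, a difference of 0.49 (SE 0.16, adjusted p = 0.039) with overlap in 1 mouse of each group. The Col4a2 result did not pass in 7 of 10 fits without 1 mouse (adjusted p up to 0.095), nor with mitochondrial genes left out of the scale (0.39, adjusted p = 0.11). Lamc1 differed by 0.78 (SE 0.18, adjusted p = 0.011) with no overlap.

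In all, 6 of the 9 chains tested under Ang II passed the adjusted p, or 5 of 8 without Col4a4, against 31.2% of genes tested. Both directions were present. Col4a1 and Lamc1 were higher in Plod1-/- mice with no overlap, as were 10.4% of genes tested, and Col4a4 and Lamb2 were lower with no overlap, as were 4.62%. Col4a3 was below the filter here and was tested alone. Its FPKM was 0.802, 0.616, 0.697, 1.38 and 0.475 in WT Ang II mice and overlapped the Plod1-/- Ang II values given before through 1 mouse of each group, a difference in mean log2(FPKM + 1) of -0.41 (two-sided exact permutation test, p = 0.016, n = 5 and 5). Lama5 (0.10, adjusted p = 0.77), Lama4 (0.17, adjusted p = 0.52) and Col4a5 (-0.10, adjusted p = 0.81) did not pass in limma. In the same comparison all 6 macrophage markers were higher DEGs in Plod1-/- mice, with sums of 199 to 1288 FPKM in WT mice and 633 to 3682 FPKM in Plod1-/- mice. Of all genes tested 7.45% were higher DEGs. Of the smooth muscle markers 2 of 7 were lower DEGs, with sums of 5510 to 17041 FPKM and 2298 to 16762 FPKM. Lower DEGs were also 2 of 6 adipocyte markers and 2 of the 4 skeletal muscle markers tested. Of the fibroblast markers, which summed to 521 to 782 FPKM in WT mice and 765 to 3844 FPKM in Plod1-/- mice, Col1a1 was a higher and Pi16 a lower DEG. Their part in the differences was not tested.

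Without Ang II the deletion of Plod1 gave no DEG among the 10 chains, where limma called 0.767% of 11999 genes, or 92, and 3251 genes had an unadjusted p under 0.05. By the adjusted p alone 2 of 10 chains passed, against 6.55% of genes tested. Col4a4 was 2.25, 1.56, 2.39, 3.26 and 2.08 FPKM in saline WT mice, below every saline-treated Plod1-/- mouse (3.43 FPKM at the lowest), a log2 difference of 0.58 (SE 0.13, limma adjusted p = 0.032). Such separation with higher values was seen for 4.22% of genes tested. The Col4a4 difference did not pass in 6 of 10 fits without 1 mouse, among them the one without the library with Xist RNA (0.52, adjusted p = 0.069). Lamc1 was lower in every Plod1-/- mouse than in every WT mouse, by -0.60 (SE 0.11, adjusted p = 0.021), with 28.6 and 29.5 FPKM as the nearest values of the groups, a separation seen for 5.3% of genes tested. Without Plod1-/- saline replicate 4 its adjusted p was 0.0501. Neither gene passed when genes of any level were tested (adjusted p = 0.0996 for Col4a4 and 0.066 for Lamc1) or with all 4 groups in one fit (adjusted p = 0.058 and 0.065). Among marker lists under saline, no smooth muscle or endothelial marker was a DEG, and Cd14 and Pi16 were lower ones.

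Paired chains were then compared as a ratio of FPKM within each mouse, in which the scaling of the library cancels. A two-sided exact permutation test on the log2 ratio was used, with adjustment over 12 tests, and 0.00794 is the smallest p that 5 against 5 mice can give. The Col4a5/Col4a6 ratio was 0.888, 0.890, 0.860, 1.01 and 0.708 in saline WT mice, 1.09, 0.965, 0.912, 1.05 and 0.997 in WT Ang II mice, and 0.870, 0.991, 0.976, 1.13 and 1.04 in saline-treated Plod1-/- mice. It was 1.85, 1.38, 1.78, 1.90 and 2.35 in Ang II-treated Plod1-/- mice. This last group stood above all other mice.

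The mean Col4a5/Col4a6 ratio was 1.00 ± 0.0967 (SD, n = 5) in Plod1-/- saline mice and 1.85 ± 0.346 in Plod1-/- Ang II mice. The log2 ratio was higher by 0.87 (SE 0.14) with Ang II in Plod1-/- mice (exact permutation test, adjusted p = 0.019), and by 0.87 (SE 0.13) in Plod1-/- against WT mice under Ang II (exact permutation test, adjusted p = 0.019). Both remained past the threshold without the libraries with Xist RNA (0.88 and 0.86). Both genes were lower under Ang II in these mice, and the decrease of Col4a6 was the larger one. In WT mice, where Ang II lowered both chains too, the ratio moved by 0.21 (SE 0.095, exact permutation test, adjusted p = 0.071), and by 0.27 (adjusted p = 0.032) without WT saline replicate 4. WT Ang II replicate 4, in which neither chain was low, had a ratio of 1.05.

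The Col4a1/Col4a2 ratio was 1.33, 1.22, 1.30, 1.21 and 1.06 in saline WT mice, the group with the highest values. It was 0.935, 0.872, 0.928, 1.19 and 0.918 in WT Ang II mice, 1.04, 0.885, 0.943, 1.02 and 0.992 in saline-treated Plod1-/- mice, and 0.956, 1.11, 1.22, 1.12 and 1.22 in Ang II-treated Plod1-/- mice. Saline-treated Plod1-/- mice were below WT mice without overlap, by a log2 difference of -0.32 (SE 0.071, exact permutation test, adjusted p = 0.019). Under Ang II the WT ratio was lower than with saline by -0.34 (SE 0.097, exact permutation test, adjusted p = 0.032). It did not pass in 8 of 10 fits that left out 1 mouse (adjusted p up to 0.063), all but those without WT saline replicate 5 or WT Ang II replicate 4. In these 10 fits the difference stayed between -0.42 and -0.31. The smallest p that 5 against 4 mice can give is 0.0159, so passing is harder there. In Plod1-/- mice the change was 0.20 (SE 0.077) and did not pass (exact permutation test, adjusted p = 0.068), but it was 0.27 and passed (adjusted p = 0.049) without both libraries with Xist RNA. Between genotypes under Ang II the difference was 0.22 (SE 0.10, exact permutation test, adjusted p = 0.11), and 0.30 (adjusted p = 0.027) without WT Ang II replicate 4.

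Col4a3 was lower than Col4a4 in every mouse. Their ratio was 0.553, 0.843, 0.663, 0.679 and 0.556 in saline WT mice and 0.459, 0.412, 0.397, 0.432 and 0.403 in saline-treated Plod1-/- mice, a log2 difference of -0.63 (SE 0.12, exact permutation test, adjusted p = 0.019) with no overlap. Between these groups Col4a4 differed by 0.58, as given above, and Col4a3 by 0.08 (limma adjusted p = 0.67). In WT Ang II mice the ratio was 0.478, 0.375, 0.440, 0.482 and 0.446, below saline WT mice without overlap (-0.56, SE 0.13, exact permutation test, adjusted p = 0.019). In Ang II-treated Plod1-/- mice it was 0.450 to 0.504 in 3 mice, 0.385 in 1 mouse and 0.882 in replicate 1. Neither the change with Ang II in Plod1-/- mice (0.30, SE 0.21) nor the genotype difference under Ang II (0.23, SE 0.21) passed (exact permutation test, adjusted p = 0.14 and 0.33), and both were smaller without that mouse (0.11 and 0.04). Values below 1 FPKM make these ratios imprecise.

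**Figure D3:**
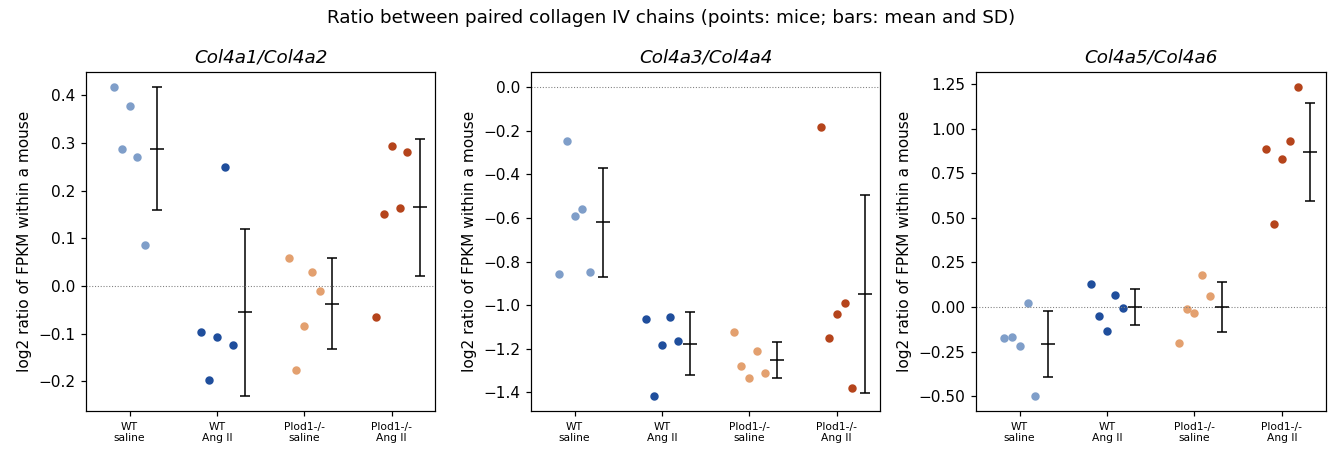
Log2 ratio of FPKM between the paired chains in each mouse (vertical axes, one scale per pair), by group; points are mice, bars the mean and SD of 5 mice, and the dotted line marks equal FPKM. The Col4a5/Col4a6 ratio of Ang II-treated Plod1-/- mice, with a mean log2 ratio of 0.87, lies above all other mice.

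Mouse by mouse, paired chains moved together. After the mean of each group was removed, Pearson's r over 20 mice was 0.906 for Col4a1 and Col4a2 (Spearman's rho 0.863), 0.867 for Col4a3 and Col4a4 (rho 0.839) and 0.909 for Col4a5 and Col4a6 (rho 0.717). Permutation of mice within groups gave adjusted p of 0.00015, 0.00022 and 0.00066 for r and 0.00015, 0.00024 and 0.0034 for rho over these 6 coefficients. Without the 2 mice farthest from the median of the first chain r was 0.847, 0.702 and 0.756 in the same order. These points share libraries, and the cell content of the mice was not accounted for.

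To place these values, each chain was correlated with 13262 other genes over 20 mice. By deviations from the group means, Col4a2 ranked first of all genes for Col4a1, Col4a1 ranked 2 for Col4a2, Col4a3 ranked 2 for Col4a4 and Col4a4 ranked 3 for Col4a3. Col4a5 ranked 3 for Col4a6, and Col4a6 ranked 4 for Col4a5. By levels, which include the group differences, the partner ranked 3 for Col4a1, 4 for Col4a2, 31 for Col4a3, 4 for Col4a4, 35 for Col4a5 and 106 for Col4a6. The genes most like each chain by levels were Numbl, Loxl1 and Col4a2 for Col4a1 (r 0.926, 0.894 and 0.889) and Eid2, Tnk2 and Loxl1 for Col4a2 (0.927, 0.909 and 0.890). They were Sh3bgrl, Ryr2 and 1010001N08Rik for Col4a3 (0.970, 0.960 and 0.959) and Fgf1, Ntn1 and Tom1l2 for Col4a4 (0.951, 0.948 and 0.941). For Col4a5 they were Prkar1a, Nptn and Akap11 (0.969, 0.963 and 0.954), and for Col4a6 Sorl1, Serpini1 and Sema3c (0.975, 0.973 and 0.970). These ranks are descriptions over 20 mice, with no test.

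**Figure D4:**
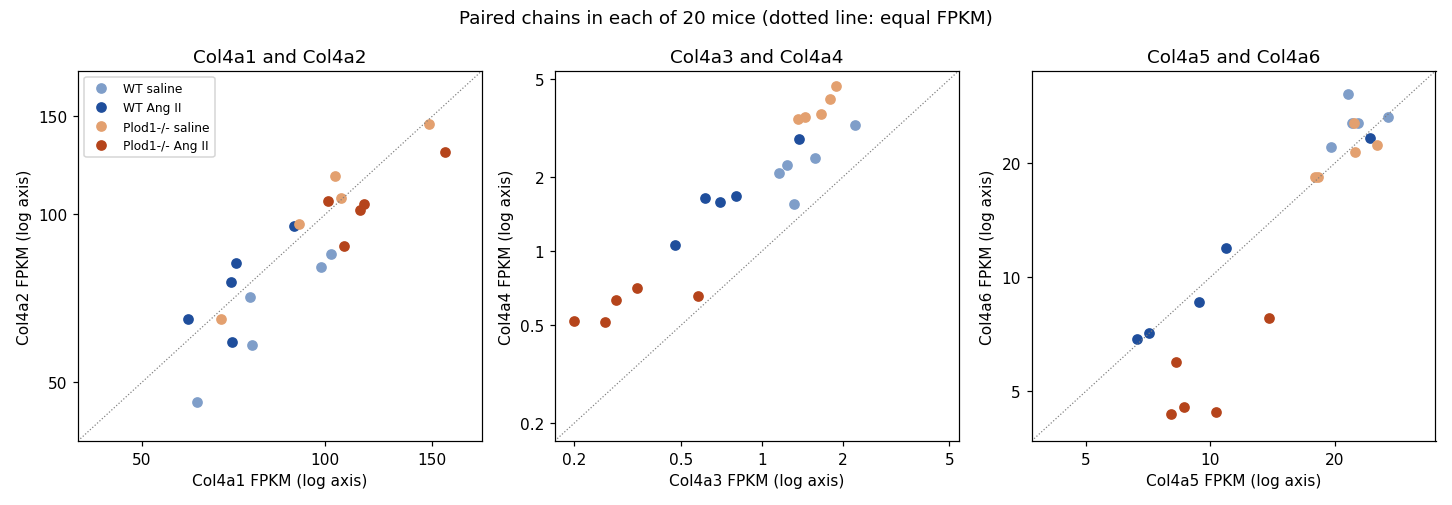
FPKM of the first chain (horizontal) against the second (vertical) of each pair in 20 mice, log axes, coloured by group; the dotted line marks equal FPKM. Points lie along the line for Col4a1 and Col4a2 and above it for Col4a3 and Col4a4. For Col4a5 and Col4a6 the 5 Ang II-treated Plod1-/- mice lie well below it, at a mean ratio of 1.85.

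As a share of the summed FPKM of the 6 collagen IV genes, Col4a1 and Col4a2 together made up 73.8% ± 2.96 (SD, n = 5) in saline WT, 85.2% ± 7.998 in WT Ang II, 80.6% ± 5.34 in Plod1-/- saline and 93.2% ± 2.06 in Plod1-/- Ang II mice. Col4a5 and Col4a6 together made up 24.3% ± 2.72, 13.3% ± 7.52, 17.2% ± 4.93 and 6.44% ± 1.999 in the same order. Col4a3 and Col4a4 together never exceeded 2.84% in a mouse, and were at 0.401% ± 0.125 in Ang II-treated Plod1-/- mice. The sum itself was 203 ± 36.8, 173 ± 23.3, 257 ± 59.4 and 241 ± 34.8 FPKM, with overlap between all groups but WT Ang II and Ang II-treated Plod1-/- mice. The shares describe the changes above and were not tested again.

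**Figure D5:**
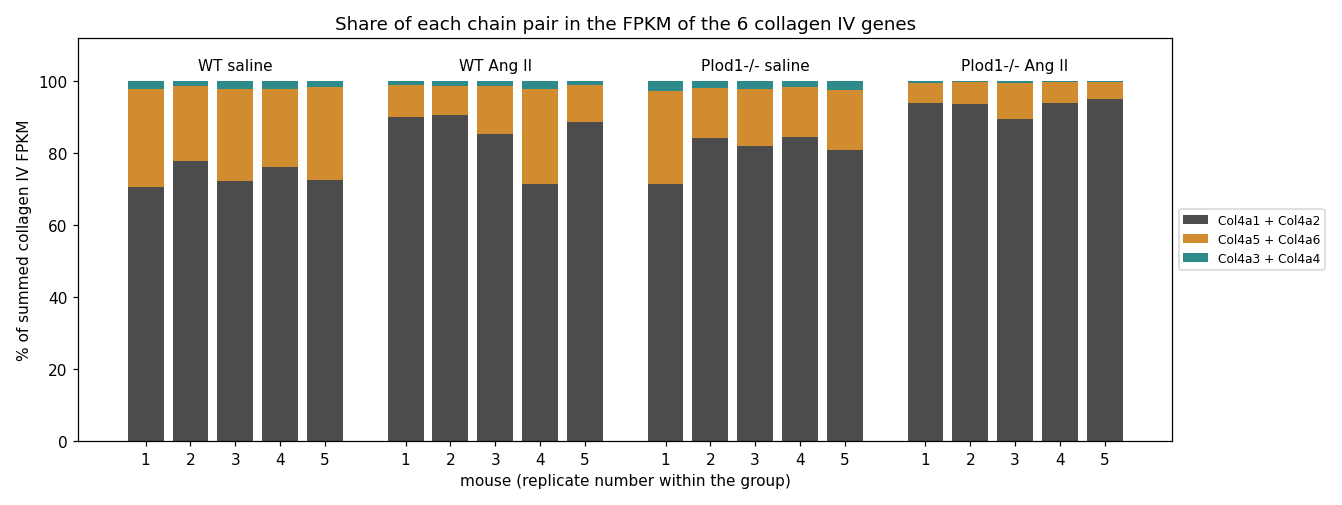
Share (%) of each chain pair in the summed FPKM of the 6 collagen IV genes, 1 bar per mouse, by group. The Col4a5 and Col4a6 share is 4.89% to 9.94% in Ang II-treated Plod1-/- mice and 13.8% to 27.2% in saline mice; WT Ang II replicate 4 has 26.3%.

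Of the 7 other laminin chain genes, 4 passed the filter in Plod1-/- mice, Lamb1 rising and Lamc3 falling with Ang II. Lamb1 encodes the β1 chain, the alternative to β2. It was 1.70, 2.59, 0.948, 0.636 and 1.35 FPKM in saline-treated Plod1-/- mice and 1.93, 18.4, 10.2, 17.5 and 26.4 FPKM in Ang II-treated ones, replicate 1 remaining in the saline range. The log2 change was 2.42 (SE 0.53, limma adjusted p = 0.0039). In WT mice Lamb1 was 1.59 to 2.25 FPKM with saline and 2.91 to 9.35 FPKM with Ang II (1.33, SE 0.23, adjusted p = 0.0024).

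With Lamb2 lower and Lamb1 higher, the β1 share of the β1 and β2 FPKM was 0.516% ± 0.266 (SD, n = 5) with saline and 14.4% ± 9.01 with Ang II in Plod1-/- mice, and 0.764% ± 0.159 and 3.44% ± 1.58 in WT mice. This share was chosen after its values were seen and was not tested. A difference between genotypes in the Lamb1 response was not shown by the interaction (1.10, SE 0.60, limma adjusted p = 0.16). Lamc3, a γ3 chain, fell by 2.68 on the log2 scale in Plod1-/- mice (SE 0.27, adjusted p = 6.0e-05) and was also lower in Plod1-/- than WT mice under Ang II (-1.73, adjusted p = 0.0035).

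Among 15 other basement membrane components, 14 were tested. Over all genes tested in Plod1-/- mice, 8.38% were higher and 5.51% lower DEGs with Ang II. Ang II gave 3 higher DEGs in Plod1-/- mice, the nidogens Nid1 (1.26, SE 0.35, limma adjusted p = 0.015) and Nid2 (1.61, SE 0.35, adjusted p = 0.0039), which link laminin to collagen IV, and Pxdn (1.06, SE 0.28, adjusted p = 0.010), the peroxidase that cross-links collagen IV with sulfilimine bonds. Lower DEGs were Col18a1 (-1.33, SE 0.28, adjusted p = 0.0033), the core of a basement membrane proteoglycan, and Npnt (-2.01, SE 0.30, adjusted p = 0.00048), an integrin ligand. In WT mice only Npnt of this list was a DEG (-1.32, SE 0.32, adjusted p = 0.010), where 8.66% of genes tested were. Hspg2, the perlecan gene, was no DEG in either genotype (-0.39, adjusted p = 0.0497, in Plod1-/- and -0.16, adjusted p = 0.29, in WT mice). Between genotypes, Sparc and Nid2 were higher and Fbln1 lower in Plod1-/- mice under Ang II, and Fbln1 and Smoc2 were lower under saline.

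Of 11 receptor genes, 9 were tested in the response to Ang II. Over all genes tested, lower DEGs were 5.51% in Plod1-/- and 2.28% in WT mice. In Plod1-/- mice 3 were lower DEGs, Bcam, a laminin α5 receptor (-1.70, SE 0.28, limma adjusted p = 0.00083), Itga3 (-1.22, SE 0.38, adjusted p = 0.025) and Itga7, the laminin-binding integrin α7 of muscle (-1.01, SE 0.12, adjusted p = 0.00015). In WT mice the lower DEGs were Itgb1 (-1.03, adjusted p = 0.0061) and Sdc4 (-1.04, adjusted p = 0.017). No receptor gene was a DEG between genotypes in either treatment, of 10 tested under Ang II and 9 under saline. Over all genes tested these shares were 11.1% and 0.767%.

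Of 11 genes for making and folding collagen, Serpinh1, the collagen chaperone HSP47, was lower with Ang II in WT mice (-1.02, SE 0.21, limma adjusted p = 0.0050) and higher in Plod1-/- mice (1.31, SE 0.30, adjusted p = 0.0051), and the responses differed by 2.33 (SE 0.37, adjusted p = 0.00021). P3h2, a prolyl 3-hydroxylase that acts on collagen IV, was a lower DEG in Plod1-/- mice (-1.52, SE 0.23, adjusted p = 0.00049). Under Ang II, Serpinh1, P4hb, P3h1 and Plod2 were higher DEGs in Plod1-/- than in WT mice, with Plod1 itself lower. Under saline, Serpinh1 and P4ha1 were lower DEGs in Plod1-/- mice besides Plod1.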

How the data were processed

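Aortic RNA of 20 mice was prepared with a TruSeq kit that does not keep strand. The authors removed ribosomal reads, aligned the rest with HISAT2, assembled transcripts and deposited FPKM per gene, one table per mouse, made with cuffquant and cuffnorm. The submitters' processing notes name HISAT2 2.1.0, Bowtie2 2.2.3, HTSeq 0.6.0 and mm10. The study's methods name another release of HISAT2, so the version is uncertain. The use of Bowtie2 and HTSeq, and the annotation release, are not given in the sources used here. Replicates were not pooled. The FPKM files hold no read counts, so no count model was fitted.

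FPKM were taken as deposited as log2(FPKM + 1). Genes with FPKM of at least 1 in at least 5 mice of a comparison were tested in limma 3.58.1 (R 4.3.3, trended empirical Bayes) with Benjamini-Hochberg adjustment over all genes tested. The interaction of genotype and Ang II used all 20 mice. Nothing in the labels says how mice were housed or processed together, and p-values measure the spread between these mice. Pair ratios and the member below the filter were tested by exact permutation (scipy 1.17.1), and within-group correlations by 100000 permutations. In simulated data for the saline comparison (11999 genes, 200 changed) the fit recovered 189 genes changed by 1.5 on the log2 scale and 200 changed by 3, with 2 and 3 false calls. The changed genes had a mean log2(FPKM + 1) above 2, and noise was drawn independently for each gene. The simulation therefore does not cover chains as low as Col4a3, or genes that vary together.

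Named genes were the 10 members, Plod1, genes of fixed lists that were called or changed most, and the 3 genes most like each collagen IV chain. The members and lists were chosen with earlier results of these data known. Alternatives were another pseudocount, no filter, a replicate block, no variance trend, weights per mouse, quantile normalization, mitochondrial genes left out, all groups in one fit, and mice left out. Replicate numbers did not pair the mice: same-numbered deviations correlated above 0.1 in 2 of 5 pairs at most. Protein sequences are not used here. Other per-sample columns were not present (0).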

Additional observations from a re-analysis of the deposited data

Results flagged for a closer look

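In 8 of 52 groups of 5 mice, 1 mouse lay far from the others by Dixon's test, which chance does in about 1 group in 20. WT Ang II replicate 4 was such a mouse for Col4a5 (24.4 FPKM), Lama4 (14.6 FPKM), Lama5 (23.6 FPKM) and the Col4a1/Col4a2 ratio (1.19), each the highest of its group. Plod1-/- Ang II replicate 1, a library with Xist RNA, was the highest of its group for Lama5 (39.3 FPKM) and the Col4a3/Col4a4 ratio (0.882). The highest mice for Col4a1 in Ang II-treated Plod1-/- mice (replicate 5, 157 FPKM) and for Lamc1 in saline-treated Plod1-/- mice (replicate 1, 28.6 FPKM) also stood apart.

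The response to Ang II differed between genotypes by the interaction term of limma for Col4a4 (-1.33), Lamb2 (-1.28), Lamc1 (1.38) and, by the adjusted p alone, Col4a3 (-0.50), all on the log2(FPKM + 1) scale as Plod1-/- minus WT. Col4a3 and Col4a4 were below 1 FPKM in every Ang II-treated Plod1-/- mouse.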

How the results depend on the processing

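Depth per library is unknown beyond its relative size, and Col4a3 and Col4a4 lie near 1 FPKM, where the pseudocount sets the size of a change. The Col4a1/Col4a2 ratio change in Plod1-/- mice became 0.27 and passed without both libraries with Xist RNA. With a pseudocount of 0.1 the Col4a3/Col4a4 ratio changes became 0.45 (Ang II in Plod1-/- mice) and 0.32 (genotype under Ang II) and passed. The number of chains called was 1 in place of 2 for Ang II in WT mice with no filter, and 2 in place of 1 for genotype under Ang II with a pseudocount of 0.1, weights per mouse or quantile normalization. Over all alternatives it was 3 to 5 for Ang II in Plod1-/- mice, Col4a3, Col4a5 and Lama5 lying near the fold threshold. Over all genes, DEGs between genotypes numbered 2134 in place of 1373 under Ang II with weights per mouse, and 149, 41 and 52 in place of 92 under saline with a pseudocount of 0.1, no filter and all 4 groups in one fit. Quantile normalization moved the split of DEGs to 915 higher and 837 lower from 1034 and 680 (Ang II in Plod1-/- mice) and to 744 and 612 from 920 and 453 (genotype under Ang II). Changes near 0 that were not called turned sign: Col4a2 with Ang II in Plod1-/- mice under quantile normalization (-0.063) and without mitochondrial genes (-0.045); Lama5 between genotypes under Ang II with quantile normalization (-0.030) and without the Xist library (-0.13); Col4a5 in that comparison with weights (0.14), and its interaction with weights (0.24) and without the Xist libraries (0.065).

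Leaving out 1 mouse at a time, the Col4a1/Col4a2 ratio change ranged from -0.42 to -0.31 in WT and 0.17 to 0.26 in Plod1-/- mice, and its genotype difference under Ang II from 0.18 to 0.30. The Col4a5/Col4a6 change in WT mice ranged from 0.14 to 0.27. Called chains ranged from 1 to 3 for Ang II in WT mice and from 0 to 1 for genotype under Ang II, and all DEGs between genotypes under saline from 44 to 107. Among uncalled changes, Col4a2 ranged from -0.13 to 0.16 with Ang II in Plod1-/- mice and its interaction from -0.28 to 0.0082; Lama5 ranged from -0.13 to 0.24 between genotypes under Ang II and its interaction from -0.28 to 0.097; Col4a5 ranged from -0.25 to 0.18 and its interaction from -0.16 to 0.27. The cause of these shifts was not tested.

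With the replicate number as a block, called chains numbered 2, 4, 1, 0 and 3 for Ang II in WT, Ang II in Plod1-/-, genotype under Ang II, genotype under saline and the interaction, the same numbers as without the block. By the adjusted p alone, 1 chain in place of 2 passed between genotypes under saline, Col4a2 (adjusted p = 0.029), and not Col4a4 (0.059) or Lamc1 (0.071). For genotype under Ang II 4 chains in place of 6 passed it, as did 19.3% in place of 31.2% of genes tested. For Ang II in Plod1-/- mice 6 chains in place of 7 passed. The number stayed at 5 for Ang II in WT mice and at 4 for the interaction. All DEGs numbered 1026, 1717, 1129, 63 and 2094. Best own-number matches were 0, 2, 1 and 0 of 5 pairs in the first 4 comparisons. Pair ratios were not tested with a block, since 5 pairs cannot pass after adjustment.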
